A study of Mus musculus with 2 samples.

Results

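The genes described here encode the desmosome and the adherens junction of the cardiac intercalated disc. The set is *Dsp*, *Pkp2*, *Jup*, *Dsg2*, *Dsc2*, *Cdh2*, *Ctnna1*, *Ctnna3*, *Ctnnb1* and *Tjp1*, chosen by name as 10 of the 13842 genes measured on the arrays. They are represented by 13 probes printed in 23 spots, and each probe was assigned to its gene through the transcript accession in the array design. The study asked what loss of the clock gene *Bmal1* in heart muscle does to gene expression in the heart. H-Bmal1-/- mice carry a *Bmal1* gene flanked by *loxP* sites and a *Cre* transgene driven by the αMHC (*Myh6*) promoter, which is active in cardiomyocytes, so that the other cells of the ventricle are not targeted. The controls were littermates with the same floxed *Bmal1* gene and no *Cre*, although the sample labels call them wildtype, and no array holds *Cre* without the floxed gene. All animals were male and 12 weeks old, from C57BL/6J-based lines, and their left ventricles were taken at ZT2, 2 hours after lights on. The paper names as a limit that changes seen at this time alone might be shifted peaks or troughs of expression. That was not tested here. RNA of 6 animals per genotype was pooled and each pool was hybridized to 1 single-color microarray, so that there are no replicates, no test was possible, and genes are described only as higher or lower in one pool than in the other.

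The intercalated disc is the end-to-end contact between cardiomyocytes. In desmosomes, the cadherins desmoglein-2 and desmocollin-2 bind across the gap, plakoglobin and plakophilin-2 hold their tails, and desmoplakin ties the plaque to desmin filaments. In adherens junctions, N-cadherin holds β-catenin and the α-catenins connect it to actin, and in the ventricle both kinds of junction merge into a mixed junction called the area composita. Inherited defects of desmosomal genes are a known cause of arrhythmogenic cardiomyopathy.

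A level below is the log2 processed signal of a probe minus the log2 of the 75th percentile over the noncontrol spots on the same array, and a ratio is the level in the knockout pool minus that in the control pool. Both arrays lay on 1 slide and were read in 1 scan. That percentile stood at a signal of 171.1 for the control array and 190.1 for the knockout array, and 49.39% of noncontrol spots were well above background in the former and 50.03% in the latter. *Arntl*, the official symbol of *Bmal1*, was 1.74-fold lower in the knockout pool, by 1 probe, and whether that probe lies in the deleted part could not be read from the sources. *Nr1d1*, a direct target of BMAL1, was 4.26-fold lower. In RNA of whole tissue, fewer cells of a type and less RNA per cell cannot be told apart.

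All 10 genes were measured, and all 13 probes were well above background on both arrays. Of the 10 genes, 7 were lower and 3 higher in the knockout pool, where 51.6% of all measured genes were lower. By a size of at least 1.5-fold, 1 gene was lower (*Ctnna3*) and none was higher, where 5.85% of all measured genes were lower and 6.16% higher by that much. Counted by probe, 2 of 13 were at least 1.5-fold lower (*Ctnna3* and 1 of the *Dsg2* probes) and none was higher, where 7.56% of all measured probes were lower and 5.91% higher. The median ratio of the 10 genes was -0.14, beside -0.01 for all measured genes. Their median distance from 0 was 0.20, beside 0.19 for all measured genes, and 5 of the 10 lay within 0.2 of 0, as did 51.9% of measured genes. The set as a whole was about as far from equal signal as the array at large, and *Ctnna3* lay outside that range.

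**Figure D1:**
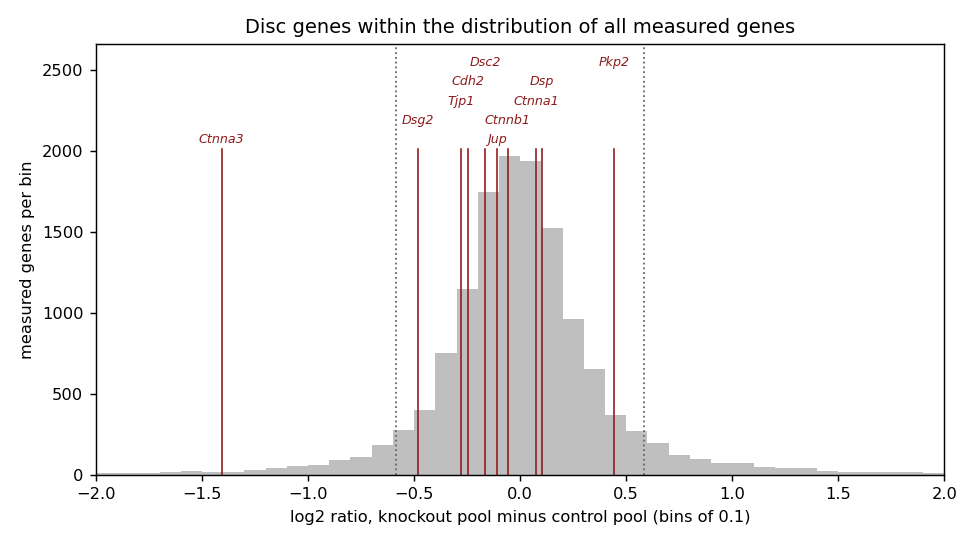
Histogram of the log2 ratio (knockout pool minus control pool, horizontal axis) of 13842 measured genes in bins of 0.1, of which 333 lie outside the range drawn. Red lines mark the 10 disc genes and dotted lines 1.5-fold. *Ctnna3* at -1.41 is the one red line outside the dotted lines, and *Pkp2* at 0.44 is the highest.

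The error on each ratio comes from the spots alone. For 250 probes printed at least 8 times and well above background, the median SD of the ratio between spots of 1 probe was 0.07, and the 95th percentile was 0.27. It depends on brightness, from 0.22 for probes with a mean level below -1 to 0.04 for those above 4. The scanner software gives each spot an error of about 10% of its signal, which comes to 0.20 to 0.25 on the ratio of a disc gene probe. By that measure, 6 of the 13 probes had a ratio smaller than its error, as did 54.1% of all measured probes. Neither error holds the difference between animals.

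After scaling, the desmosomal cadherins were both lower in the knockout pool, by different amounts. *Dsg2*, which encodes desmoglein-2, has 2 probes. The brighter one gave a signal of 384.6 for the controls and 256.9 for the knockout pool, a 1.66-fold lower value at a ratio of -0.73. The dimmer one read 64.2 and 60.9, a ratio of -0.23. Both probes were lower in the knockout pool and both ratios exceeded the scanner error, at 0.21 and 0.22. Without scaling, the dimmer probe stood at -0.08, which is smaller than its error. The ratios of the 2 probes lay 0.51 apart. Among the 3539 genes measured by several probes, 14.6% had a pair that far apart or farther. The mean over both probes is -0.48, a 1.40-fold difference. *Dsc2*, which encodes the partner cadherin desmocollin-2, read 338.6 and 335.6, so that its raw signals were nearly equal. Its ratio of -0.16 arises from the scaling between arrays and is smaller than its scanner error of 0.20.

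*Dsg2* and *Dsc2* lie at opposite sides of a cluster of 9 desmosomal cadherin genes on mouse chromosome 18, in the order *Dsc3*, *Dsc2*, *Dsc1*, *Dsg1c*, *Dsg1a*, *Dsg1b*, *Dsg4*, *Dsg3* and *Dsg2*. The other 7 genes, which serve stratified epithelia, were not well above background on either array, with median signals from 2.37 to 3.15. The heart arrays thus detected 1 desmoglein and 1 desmocollin. *Cdh2* and *Ctnna1* are also on chromosome 18, which holds 4 of the 10 genes.

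The armadillo proteins of the desmosome differed from each other. *Pkp2*, which encodes plakophilin-2, read 7532 for the controls and 11360 for the knockout pool, 1.36-fold higher at a ratio of 0.44. It was the highest of the 10 genes, and its ratio was above the scanner error of 0.20. Of all measured probes, 10.7% had a ratio as high, and of those with a mean level above 4 as *Pkp2* has, 3.73%. *Jup*, which encodes plakoglobin, read 81.8 and 84.3, a ratio of -0.11 that is smaller than its error of 0.22. The ratios of *Pkp2* and *Jup* differed by 0.55.

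*Dsp*, which encodes desmoplakin, is the member with the most spots. Its brighter probe was printed 10 times, and 2 spots were left out because they carried an outlier flag. The 8 spots used ranged from 8658 to 9681 for the controls and from 10504 to 11786 for the knockout pool, with geometric means of 9244 and 11337. These signals did not overlap between arrays, whereas the scaled levels did, since the lowest knockout spot at 5.79 was below the highest control spot at 5.82. The ratio after scaling was 0.14 ± 0.07 (SD between 8 spots of 1 pair of arrays), from 0.06 to 0.29 by spot. All 8 spot ratios were above 0. The other *Dsp* probe read 202.6 and 235.0, a ratio of 0.06. The gene came to 0.10, a 1.07-fold difference, below the scanner error of a single spot.

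**Figure D2:**
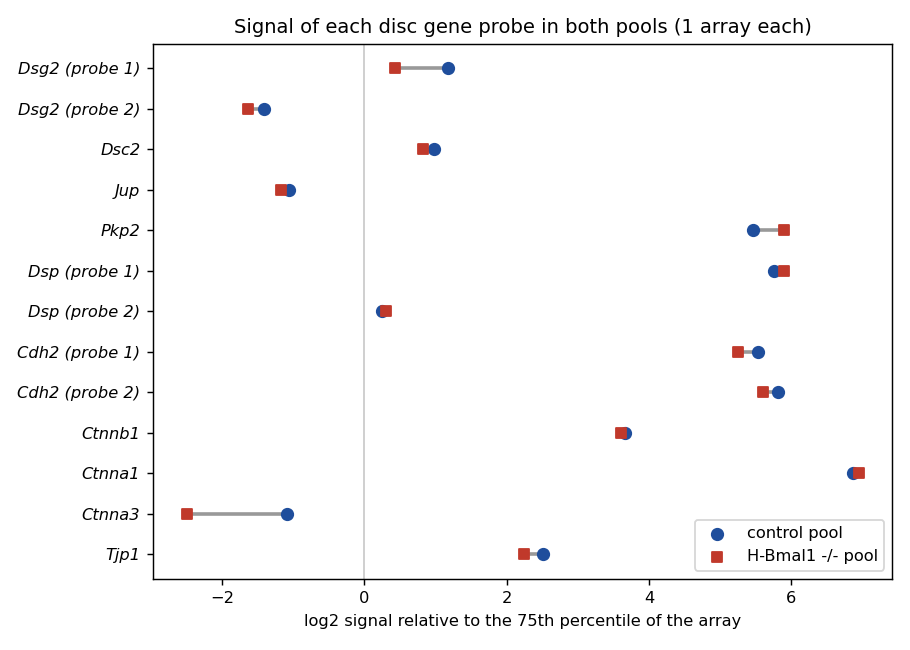
Level of each of the 13 disc gene probes, as log2 signal over the array's 75th percentile (horizontal axis), in the control pool (blue circles) and the H-Bmal1-/- pool (red squares), with 1 array each. The gap is widest for *Ctnna3*, from -1.09 to -2.50, and next for the first *Dsg2* probe, from 1.17 to 0.43, and the *Ctnnb1*, *Jup* and *Dsp* symbols overlap or nearly do.

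Among the adherens junction genes, the classical cadherin was lower and the main catenins were close to equal. *Cdh2*, which encodes N-cadherin, has 2 bright probes that gave nearly the same result. One read 7914 for the controls and 7259 for the knockout pool (ratio -0.28), and the other 9621 and 9214 (-0.21). Their mean of -0.24 is a 1.19-fold lower value. *Tjp1*, which encodes the membrane scaffold ZO-1, read 978.5 and 895.9, and its ratio of -0.28 is a 1.21-fold lower value. Without scaling, the *Cdh2* probes were at -0.12 and -0.06 and *Tjp1* at -0.13, each smaller than its scanner error of 0.20.

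*Ctnnb1*, which encodes β-catenin, had 2 spots, which read 2097 and 2241 for the controls and 2296 and 2327 for the knockout pool. The raw signals were higher on the knockout array and the scaled ratio was slightly below 0, at -0.06 (-0.10 and -0.02 by spot). Its direction therefore rests on the scaling. *Ctnna1*, which encodes αE-catenin, read 20105 and 23524, a ratio of 0.08 that is smaller than its error of 0.20.

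The other α-catenin gave the widest difference of the set. *Ctnna3* encodes αT-catenin, an α-catenin found mainly in heart and testis that also binds plakophilin-2 in the area composita. Its 1 probe read 80.2 (scanner error 8.55) for the controls and 33.6 (scanner error 4.47) for the knockout pool. It was 2.65-fold lower in the knockout pool, a ratio of -1.41 with a scanner error of 0.25. Of all measured genes, 1.81% had a ratio as low. The ratio of *Ctnna1* exceeded that of *Ctnna3* by 1.48.

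The *Ctnna3* probe was dim, and dim probes spread more. Before background correction its spot had a median pixel signal of 97 (control) and 51 (knockout), over local backgrounds of 25 and 26. Among probes with a mean level below -1, 15.5% were at least 1.5-fold lower and 13.4% at least 1.5-fold higher, and 5.31% were as low as *Ctnna3*. A normexp background correction with an offset of 50, which pulls low signals together, gave a ratio of -0.71, still past 1.5-fold. *Jup* and the dimmer *Dsg2* probe are in the same range of signal, where the median distance of a probe from 0 was 0.33. Genes that lie inside the span of the α-catenin genes, *Lrrtm2* in *Ctnna1* and *Lrrtm3* in *Ctnna3*, had 2 probes each and were not well above background on either array.

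**Figure D3:**
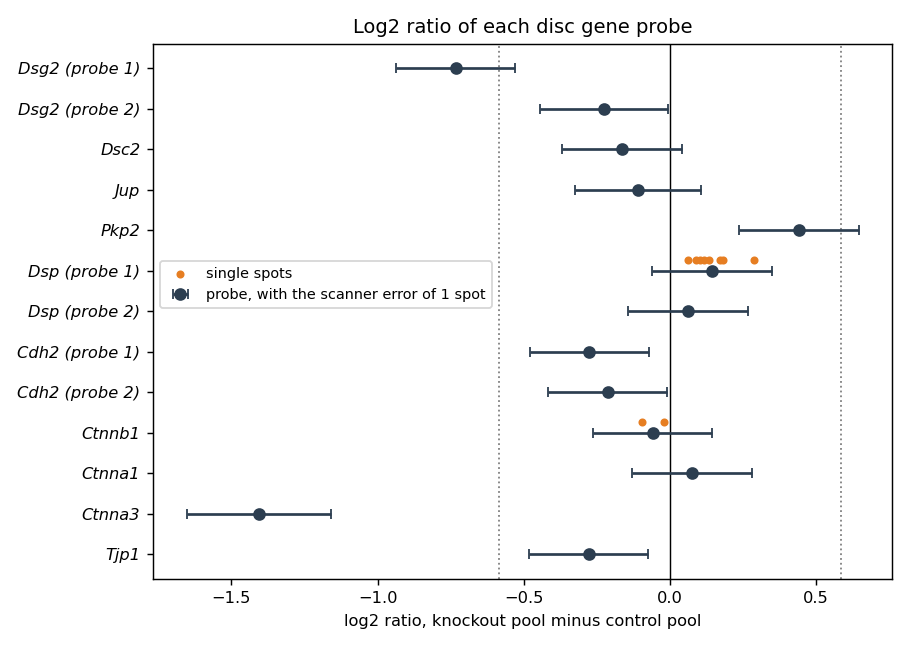
Log2 ratio (knockout pool minus control pool, horizontal axis) of each disc gene probe, with bars for the error that the scanner software assigns to 1 spot and orange points for single spots where a probe had several. Dotted lines mark 1.5-fold. The bars of *Ctnna3*, both *Dsg2* probes, *Pkp2*, both *Cdh2* probes and *Tjp1* do not reach 0.

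BMAL1 binds DNA with CLOCK at E-boxes, of which CACGTG is the canonical form and CACGTT a known variant, and REV-ERBα binds at the half-site AGGTCA. These letters were looked for on both strands in the RefSeq promoter windows of GRCm38.p6, from 250 bases before to 50 bases after each start. Windows were searched for 5 of the 10 genes (*Ctnna3*, *Ctnnb1*, *Dsp*, *Jup* and *Tjp1*), 8 in all. No window of *Cdh2*, *Ctnna1*, *Dsc2*, *Dsg2* or *Pkp2* was searched, so the counts of matches say nothing about these genes. CACGTG was in none of the 8, beside 7.15% of 32851 mouse windows. CACGTT was in 1 of the 8, beside 4.68% of all windows, and AGGTCA in 1, beside 16.3%. Both matches were at *Ctnna3*, which has 3 annotated starts. The start without a match is not shown. The 250 bases before each of the others are shown because *Ctnna3* is the member with the widest difference. The first is on the plus strand at chr10:63429848-63430097, with the variant E-box (as AACGTG, its reverse complement) in capitals, and the next is on the plus strand at chr10:63457261-63457510, with the half-site in capitals.
*Ctnna3* start 1: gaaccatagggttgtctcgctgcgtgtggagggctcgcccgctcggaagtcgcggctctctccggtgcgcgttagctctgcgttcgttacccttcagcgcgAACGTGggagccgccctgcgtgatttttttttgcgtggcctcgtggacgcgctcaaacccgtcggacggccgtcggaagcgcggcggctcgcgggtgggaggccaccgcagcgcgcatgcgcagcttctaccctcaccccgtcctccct
*Ctnna3* start 2: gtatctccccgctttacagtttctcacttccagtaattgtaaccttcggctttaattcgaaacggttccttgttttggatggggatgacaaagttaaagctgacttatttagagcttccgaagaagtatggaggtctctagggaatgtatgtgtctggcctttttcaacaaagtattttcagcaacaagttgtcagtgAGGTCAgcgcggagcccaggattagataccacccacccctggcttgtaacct
The variant E-box begins at position -149 and the half-site at position -52, each counted from its own start. Which of the 3 starts is used in these ventricles is not given by the arrays, and a match is a description of letters, not a bound site.

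Genes that act with the disc were described by lists. Of 24 other genes of the adherens junction and area composita, 22 were measured, 7 lower and 15 higher in the knockout pool, with a median ratio of 0.07. *Ctnnal1*, which encodes the α-catenin-like protein α-catulin, was 2.36-fold lower, with its 2 probes at -1.27 and -1.20 (-0.88 for the gene after normexp). It was the 1 member of the list at least 1.5-fold lower, and *Tmem65*, a disc membrane protein that binds connexin 43, was at -0.57. At the other end were *Xirp2*, an actin-binding Xin repeat protein of the disc, which was 2.76-fold higher, and *Enah*, a regulator of actin assembly, which was 2.38-fold higher with probes at 1.12 and 1.38. *Des*, the intermediate filament protein to which desmoplakin attaches, was 1.55-fold higher. *Ctnnd1* (p120 catenin, 0.06), *Vcl* (vinculin, 0.14) and *Pkp4* (0.10) were near 0.

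The desmosome genes of stratified epithelia were largely undetected. Of 12 such genes, 4 were measured, 3 lower and 1 higher. The plakins *Ppl* (periplakin) and *Evpl* (envoplakin) were at -0.65 and -0.42, and after normexp at -0.37 and -0.26. The bright ones were *Pkp3*, at -0.19 from signals of 2480 and 2411, and *Perp*, a tetraspan membrane protein of desmosomes. *Perp* was at 0.08 from signals of 10445 and 12302.

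Channels and gap junction proteins that gather at the disc gave 7 of 10 measured genes lower and 3 higher, with a median of -0.10. Left unscaled, that median was 0.05. *Gja1*, which encodes connexin 43, the main ventricular gap junction protein, was at 0.05. *Gjc1*, which encodes connexin 45, was at -0.43. *Fgf13*, a modulator of sodium channels, was at -0.59 (-0.44 after normexp). *Kcnj2*, the inward rectifier potassium channel Kir2.1, had a ratio of -1.20 from signals of 38.0 and 18.4, and of -0.35 after normexp.

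β-Catenin also acts as a transcription coactivator. In the destruction complex that degrades free β-catenin, all 7 genes were measured and lay between -0.25 (*Btrc*) and 0.14 (*Apc*), 4 lower and 3 higher, with none at 1.5-fold. Of 13 target genes of β-catenin and TCF factors, 7 were measured, 4 lower and 3 higher, with a median of -0.11 that became 0.04 without scaling. By at least 1.5-fold, 1 was lower (*Znrf3*) and 1 higher (*Apcdd1*), both from dim probes and neither past that size after normexp. *Axin2*, *Lef1*, *Lgr5*, *Rnf43*, *Sp5* and *Tcf7* were not well above background on either array. Of those measured, *Ccnd1* was at 0.29, *Znrf3* at -0.97 (-0.31 after normexp) and *Apcdd1* at 0.59 (0.21 after normexp).

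Of 11 measured Hippo pathway transcripts, 5 were lower and 6 higher, with a median of 0.13 that became 0.0036 with the brightest probe of each gene. The coactivator genes *Yap1* and *Wwtr1* (TAZ) were at -0.03 and 0.17. Among the genes that YAP is known to induce, *Ccn2* read 2061 and 16317, a 7.13-fold higher value, *Ankrd1* was 5.13-fold higher and *Ccn1* 1.47-fold higher, whereas *Amotl2* was at 0.13 and *Lats2* at 0.24 (0.0036 by its brightest probe). The kinase gene *Lats1* was at -0.48 (-0.17 after normexp), and *Tead4*, a DNA-binding partner of YAP that was well above background for the controls alone, was at -0.44 (-0.24 after normexp). *Ccn2* and *Ankrd1* were farther from 0 than any of the 10 disc genes. Other cadherins of the heart gave 3 lower and 5 higher of 8 measured genes, with a median of 0.12 that became -0.15 with no filter on dim probes. *Cdh11* was the 1 member at least 1.5-fold apart, at 0.70 and at 0.08 after normexp, and *Fat1* was at 0.39. *Cdh5* (VE-cadherin of endothelium) was at -0.22 and *Cdh13* (T-cadherin) at -0.18, and the probes of *Cdh4* lay at -1.02 and 1.07.

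**Figure D4:**
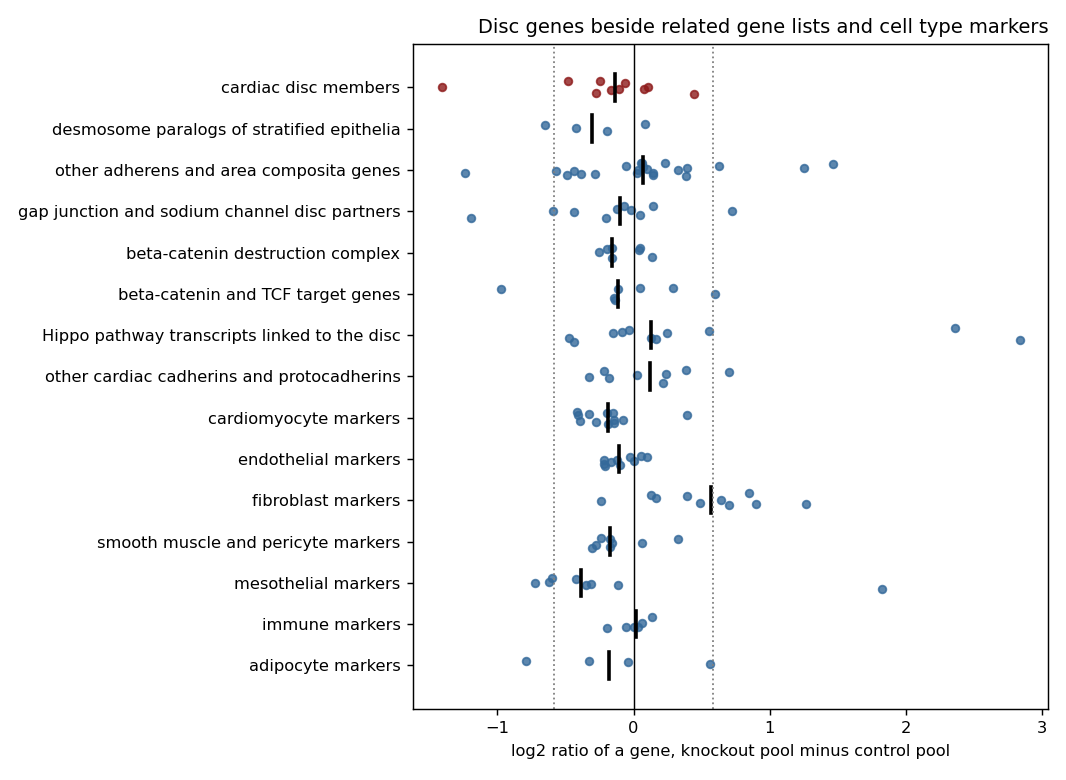
Log2 ratio (knockout pool minus control pool, horizontal axis) of each measured gene in the disc set (red), in related lists and in cell type marker lists (blue). Each point is 1 gene, black bars are medians and dotted lines mark 1.5-fold. The fibroblast bar lies at 0.57, the cardiomyocyte bar at -0.19, the smooth muscle bar at -0.18 and the endothelial bar at -0.11. The bar of the disc set lies at -0.14.

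Markers of the cell types of the ventricle moved between the pools as well. Of 12 cardiomyocyte markers, 11 were lower and 1 higher (*Actn2*, 0.39), with a median of -0.19. The median of the disc genes was -0.14, and the smooth muscle (-0.18) and endothelial (-0.11) lists lay at least as near to it. The summed level of the cardiomyocyte markers, in multiples of the 75th percentile, was 9264 for the controls and 8097 for the knockout pool. Under quantile normalization, which gives spots of equal rank the same value, their median was -0.11, with *Myl3* and *Mb* at 0. Without scaling their median was -0.04. Of 10 fibroblast markers, 9 were higher, 5 of them by at least 1.5-fold, with a median of 0.57 and a summed level of 315.1 and 476.0. *Col1a1* was at 0.90 and *Mfap5* at 1.26, and *Fbln1* was the 1 marker below 0, at -0.24.

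Mesothelial cells, which line the heart and also hold desmosomes, had 7 of 8 markers lower, with a median of -0.39 (-0.21 after normexp) and a summed level of 10.52 and 11.18. The markers at least 1.5-fold lower were *Upk3b*, *Krt19* and *Msln*, and none of these reached that size after normexp (-0.40, -0.45 and -0.52) or without scaling (-0.57, -0.47 and -0.44). *Krt18* was at 1.82. Endothelial markers gave 7 of 10 lower with a median of -0.11, which became 0.04 without scaling. Smooth muscle and pericyte markers gave 6 of 8 lower with a median of -0.18, which became -0.02 without scaling. Immune markers had a median of 0.02 over 6 measured genes. Of 7 adipocyte markers, 4 were measured, 3 lower and 1 higher, and *Adipoq*, *Cidec* and *Lep* were not well above background. The part of these shifts in the ratios of the disc genes was not tested.

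The ratios of the 10 genes were recomputed under 9 other settings, and 88 of 90 values stayed on their side of 0. The exceptions were *Ctnnb1* and *Jup* without scaling between the arrays, at 0.09 and 0.04. *Pkp2* ran from 0.43 to 0.59, *Dsg2* from -0.73 to -0.33, *Cdh2* from -0.25 to -0.09, and *Tjp1* from -0.29 to -0.13. After normexp, *Tjp1* was at -0.14, *Dsc2* at -0.09, *Ctnnb1* at -0.03 and *Ctnna1* at 0.15. *Ctnna3* was the lowest of the 10 genes under each scaling and after normexp, and with the brightest probe of each gene.

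**Figure D5:**
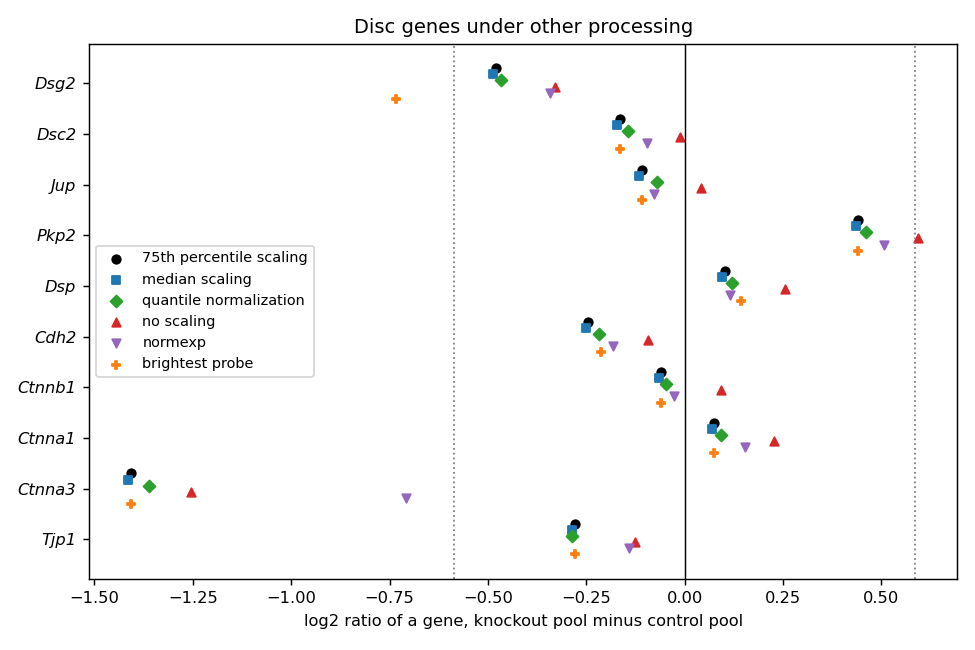
Log2 ratio (knockout pool minus control pool, horizontal axis) of each disc gene under 6 settings, marked by symbol and color, with dotted lines at 1.5-fold. Red triangles, without scaling, lie 0.15 to the right of the black circles, and the normexp symbol of *Ctnna3* lies at -0.71 beside -1.41.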

How the data were processed

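Left ventricular RNA was pooled from 6 animals per genotype, labeled with Cy3 and hybridized to Agilent SurePrint G3 mouse arrays. The deposited scanner files hold the processed signal intensity on a linear scale, which the authors obtained with Agilent Feature Extraction and describe as corrected for background and normalized. No factor between the arrays is given for it. Its version is 10.5.1.1 in the submitters' processing notes and 10.10.1.1 in the header of the scanner output. A value table from the authors holds the same signals times a different factor for each array, by a rule that the sources do not give. Its medians are 67.2 and 64, and it served as an alternative.

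Control spots were not used, and of 59305 noncontrol spots, 269 that carried an outlier flag did not enter the ratios. From the log2 signal, that of the array's 75th percentile was subtracted, spots of a probe were averaged, and a gene is the mean over its measured probes, those well above background on either array. Accessions gave symbols to 26756 of 55681 probes through a RefSeq table of GRCm38.p6, used for names and gene order. A feature well above background on 1 array only was counted by its bound. Normexp was run on the median signal and median local background. The steps were tested on simulated data. The calculations used Python 3.11.15, numpy 2.4.6, pandas 2.3.3, matplotlib 3.10.9, R 4.3.3 and limma 3.58.1.

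All 10 members are named, and from each list up to 3 of the lowest and highest genes were eligible, with *Arntl* and *Nr1d1*. Other genes were named after their values were seen. Many list genes enter only the counts and medians, and values of some are not reported here. The members and lists were chosen with earlier results of these data known. The number of arrays limits the precision.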

Additional observations from a re-analysis of the deposited data

How the results depend on the processing

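No paired analysis was possible because each genotype has 1 array, and for the same reason no array could be left out. Without scaling between the arrays every ratio is 0.15 higher. The median of the 10 disc genes then became 0.015, with 5 lower, and 2 of them (*Ctnna3* and *Pkp2*) were at least 1.5-fold apart. With the brightest probe of each gene, 2 (*Ctnna3* and *Dsg2*) were at least 1.5-fold apart, and 3 (*Ctnna3*, *Dsg2* and *Pkp2*) passed the lower of the other size limits tried. Under the other settings run, 7 of the 10 genes were lower, 1 was at least 1.5-fold apart, and the median lay between -0.14 and -0.09. Over all measured genes, 810 were lower and 852 higher by at least 1.5-fold, so that 51.3% of these were higher. Without scaling, 530 were lower and 1337 higher (71.6%), and the median over all measured genes was 0.14. After normexp, 248 were lower and 369 higher, and with no filter on dim probes 1571 were lower and 1448 higher. Normexp draws low signals toward each other, so that of the 10 genes *Ctnna3* moved farthest. Signal over background limits *Ctnna3*, *Jup* and the dimmer *Dsg2* probe most.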
